A study of Mus musculus with 4 samples.

Results

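CC chemokines are small secreted proteins with a pair of adjacent cysteines near the amino end. They bind receptors coupled to inhibitory G proteins and draw leukocytes along a gradient. Macrophages are a main source of several of them, and the genes for most of the inflammatory ones lie side by side on mouse chromosome 11. The 10 CC chemokine genes described here were taken by name from 24530 rows with 1 RefSeq transcript per gene: Ccl2, Ccl3, Ccl4, Ccl5, Ccl6, Ccl7, Ccl9, Ccl12, Ccl22 and Ccl24. Each had 1 transcript in the files, and 8 passed the filter on low counts. Ccl12 and Ccl24 did not.

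The RNA came from RAW 264.7, a transformed mouse macrophage line. A pair of libraries came from cells stably carrying Dnm3os, a long noncoding RNA, and the other pair from cells stably carrying the empty pcDNA 3.1(+) plasmid. All were cultured in 5.5 mmol/L glucose at passages 3 to 6, and the labels do not say if cultures or clones differ between the 2 libraries of a group, so p-values measure only the spread between these libraries, which may be technical. Summed counts ranged from 48480628 to 65610942 per library, and 29416272 to 39769640 with 1 transcript per gene. Dnm3os had 208 and 260 counts in the Dnm3os libraries, against 0 and 0 in the empty vector libraries. Of 10 macrophage markers, Mertk was nearly absent at a mean of 0.0144 CPM. CPM is the count relative to the scaled library total, as given by the cpm function of edgeR. The other 9 were tested, with 4 higher and 2 lower at an adjusted p below 0.05 by edgeR. Beside them, 6.51% of all tested genes were called higher and 5.75% lower. Itgam (log2 fold change 1.01), Fcgr1 (0.75), Csf1r (0.27) and Lyz2 (0.15) were higher, and Adgre1 (-0.3) and Cd68 (-0.11) lower. The 10 markers summed to 11177 and 10694 CPM in Dnm3os libraries, against 9956 and 9803 CPM in empty vector libraries. Most of that sum was Lyz2, with 8037 and 7576 CPM in Dnm3os libraries, against 7088 and 6938 CPM in empty vector libraries. Summed dendritic cell markers had 17.6 and 18.5 CPM in Dnm3os libraries, against 12.7 and 13.3 CPM in empty vector libraries. Summed neutrophil markers had 5.95 and 5.19 CPM in Dnm3os libraries, against 4.54 and 4.27 CPM in empty vector libraries. Summed endothelial markers had 1.02 and 0.904 CPM in Dnm3os libraries, against 0.326 and 0.453 CPM in empty vector libraries. The lymphocyte, fibroblast and epithelial sums were at most 0.283 CPM in any library. Of these lists, 3 of 7 lymphocyte, 4 of 6 neutrophil, 1 of 5 dendritic, 3 of 6 fibroblast and 2 of 4 epithelial markers had 0 counts in all 4 libraries, among them Cd3e, Ly6g, Flt3, Col1a2 and Epcam. Most of the dendritic sum was Itgax and Xcr1, and most of the neutrophil sum was S100a8. Itgax (log2 fold change 0.79) and the endothelial marker Kdr (1.4, at 22 counts or fewer per library) were called higher. Xcr1 and S100a8 were tested and not called. The part of these markers in the results was not tested. In RNA of a whole culture, fewer producing cells and less RNA per cell cannot be told apart.

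The members sit in 4 places in the genome. Ccl2, Ccl7 and Ccl12 lie in 1 stretch of chromosome 11 and Ccl5, Ccl9, Ccl6, Ccl3 and Ccl4 are 5 consecutive coding genes in another. Ccl24 is on chromosome 5 and Ccl22 on chromosome 8. The RefSeq promoter table (GRCm38.p6) held 5 of the 10 members, Ccl3, Ccl6, Ccl9, Ccl12 and Ccl22. The 250 bases before the start site of 4 of them are shown because they pair the abundant Ccl9, which rose, with its neighbour Ccl6, with Ccl3, which did not pass the test, and with Ccl22 from outside the cluster. Capitals mark motif matches, and the sequences run in the direction of transcription.
Ccl9, chr11:83578637-83578886, minus strand: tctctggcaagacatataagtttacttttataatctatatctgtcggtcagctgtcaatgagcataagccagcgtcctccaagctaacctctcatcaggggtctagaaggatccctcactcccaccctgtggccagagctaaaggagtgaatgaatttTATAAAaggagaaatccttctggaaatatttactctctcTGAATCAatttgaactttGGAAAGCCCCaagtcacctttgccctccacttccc
Ccl6, chr11:83593088-83593337, minus strand: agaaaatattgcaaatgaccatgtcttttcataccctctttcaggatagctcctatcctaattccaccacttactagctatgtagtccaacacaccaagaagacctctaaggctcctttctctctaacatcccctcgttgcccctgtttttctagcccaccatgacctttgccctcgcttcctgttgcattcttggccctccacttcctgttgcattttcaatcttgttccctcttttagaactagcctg
Ccl3, chr11:83649379-83649628, minus strand: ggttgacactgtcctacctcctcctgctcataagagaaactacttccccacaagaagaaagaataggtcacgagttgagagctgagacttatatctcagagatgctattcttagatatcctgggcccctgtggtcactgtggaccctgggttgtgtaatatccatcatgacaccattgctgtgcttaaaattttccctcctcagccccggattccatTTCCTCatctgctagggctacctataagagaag
Ccl22, chr8:94745434-94745683, plus strand: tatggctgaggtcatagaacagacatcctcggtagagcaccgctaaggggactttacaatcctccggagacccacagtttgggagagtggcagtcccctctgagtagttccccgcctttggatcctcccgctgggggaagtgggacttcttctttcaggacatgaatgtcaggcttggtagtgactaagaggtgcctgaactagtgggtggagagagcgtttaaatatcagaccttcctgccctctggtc

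The motifs searched on both strands were the NF-kB motif, AP-1 (TGANTCA), C/EBP (TTGCNNAA), PU.1 (GAGGAA) and STAT (TTCNNNGAA), and on the sense strand the TATA box (TATAAA). In Ccl9 the matches were a TATAAA at positions -92 to -87, an AP-1 match at -53 to -47 and an NF-kB match at -35 to -26. Ccl3 had a single PU.1 match, at -33 to -28, and neither Ccl6 nor Ccl22 had any of the 6 in this window. Of 32851 promoters of the same length in the table, 7.3% held the NF-kB motif, 6.7% AP-1, 9.6% C/EBP, 23.3% PU.1, 7.0% STAT and 7.6% the TATA box. A match describes letters and is no evidence of binding, and a missing match says nothing about the factor. Ccl6 and Ccl9 shared sequence around their starts: over 300-base windows their best local alignment covered 74 columns with 78.4% identity and a score of 38 (1 for each match, with mismatches and gaps subtracted), whereas the other 9 pairs among the 5 promoters scored 8 to 12. The Ccl6 and Ccl9 alignment began at -59 in Ccl6 and at -18 in Ccl9, so the starts were offset from each other. The part of it that lies before both starts is printed with identical bases in capitals.
Ccl9, chr11:83578638-83578654, minus strand: CTTtGCCCTCCACTTCC
Ccl6, chr11:83593130-83593146, minus strand: CTTgGCCCTCCACTTCC

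In cells carrying Dnm3os, 5 of the 8 tested CC chemokines rose and none fell. Ccl2 and Ccl7, which recruit monocytes through the receptor Ccr2, were 1.65-fold and 2.23-fold higher, and Ccl9, a ligand of Ccr1, was 1.37-fold higher. Ccl6, another Ccr1 ligand, and Ccl22, a ligand of Ccr4 on T cells, rose from low levels. Ccl3, Ccl4 and Ccl5, which attract monocytes and T cells, did not pass the test. Calls are from the quasi-likelihood F test of edgeR, two-sided, at a Benjamini-Hochberg adjusted p below 0.05 across 13172 genes, and at that threshold 6.51% of all tested genes were called higher and 5.75% lower, 12.3% in all. DESeq2 called 3 members higher instead of 5, without Ccl6 (adjusted p = 0.346) and Ccl22 (adjusted p = 0.239). Members lower numbered 0 by DESeq2, 0 by limma-voom and 0 at an edgeR p below 0.05 before adjustment. A fitted fold above 1.5 was seen in 4 members (Ccl2, Ccl6, Ccl7 and Ccl22), beside 3.17% of tested genes in that direction. The median log2 fold change of the 8 tested members was 0.59, beside 0.00 over all genes tested. All 8 had both Dnm3os libraries above both empty vector libraries, an order that 26.2% of tested genes showed in that direction and 51.2% in either. These counts leave out the 2 members that the filter removed. Without Dnm3os library 2 or without empty vector library 1, 3 members were called higher, and without empty vector library 2, 7 were.

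**Figure D1:**
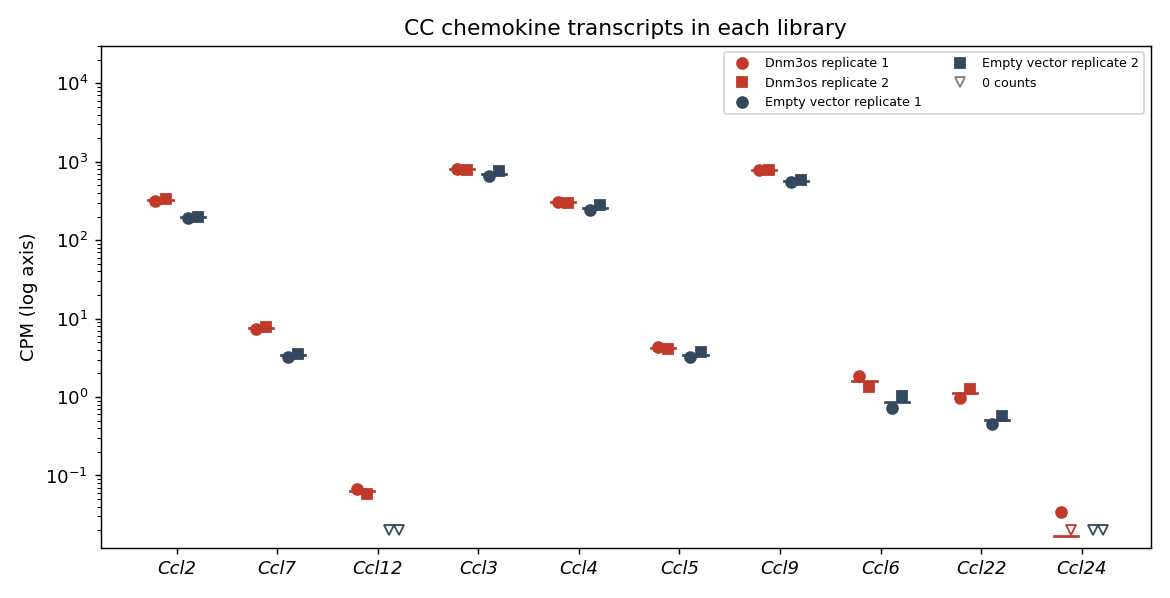
CPM (log axis) of each CC chemokine in the 2 Dnm3os and the 2 empty vector libraries, with circles for replicate 1, squares for replicate 2, a short line at each group mean and open triangles at 0 counts. Ccl3 and Ccl9 lie at 558 to 817 CPM in all libraries, and Ccl12 and Ccl24 at 2 counts or fewer.

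Of the Ccr2 ligands, Ccl2 and Ccl7 rose and Ccl12 was too low to test. Ccl2, the main monocyte chemoattractant, had 313 and 332 CPM in Dnm3os libraries, against 195 and 195 CPM in empty vector libraries. The gap between the groups was many times the spread within either (322 ± 14.0 against 195 ± 0.285 CPM, SD, n = 2 each; log2 fold change 0.73 ± 0.03 SE, adjusted p = 3.25e-13 by edgeR). Ccl7, its chromosomal neighbour, had 215 and 268 counts or 7.30 and 7.82 CPM in Dnm3os libraries, against 129 and 126 counts or 3.23 and 3.57 CPM in empty vector libraries. It rose by a log2 fold change of 1.16 ± 0.12 SE (adjusted p = 3.54e-07 by edgeR), and both calls held under all 14 alternatives. Within a library, Ccl7 counts were 0.0234 and 0.0235 of the Ccl2 counts in Dnm3os cells and 0.0166 and 0.0183 in empty vector cells. Those ratios did not overlap between the groups. Ccl12, the third Ccr2 ligand of the cluster, had 2 and 2 counts in Dnm3os libraries, against 0 and 0 in empty vector libraries. A count of 0 allows up to 3 counts, 0.0752 and 0.0849 CPM in the empty vector libraries (counting error only), which is above the level seen with Dnm3os. No difference in Ccl12 was detectable at this depth.

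Ccl3 and Ccl4 were among the 4 abundant members, with Ccl2 and Ccl9, and their groups lay close. Ccl3, the macrophage inflammatory protein 1-alpha, had 817 and 781 CPM in Dnm3os libraries, against 658 and 758 CPM in empty vector libraries. Ccl4, its adjacent paralog, had 310 and 299 CPM in Dnm3os libraries, against 239 and 281 CPM in empty vector libraries. For both, the 2 empty vector libraries were farther apart than the nearer one was from the Dnm3os libraries. The log2 fold changes were 0.17 for Ccl3 (95% interval -0.19 to 0.54, adjusted p = 0.487 by edgeR) and 0.23 for Ccl4 (95% interval -0.13 to 0.58, adjusted p = 0.389 by edgeR). Without empty vector library 2, the higher of its group, the log2 fold changes were 0.28 for Ccl3 and 0.35 for Ccl4. Such a fit leaves 1 empty vector library, so it cannot measure the spread of that group. Without empty vector library 1 the values were 0.07 for Ccl3 and 0.11 for Ccl4. With all 4 libraries and the replicate number as a block, Ccl4 was called at 0.23 (adjusted p = 0.0264 by edgeR) and Ccl3 was not. The sizes of change of this pair thus varied with the empty vector library left out, and the call of Ccl4 with the model.

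Ccl4 followed Ccl3 from library to library, with 0.379 and 0.383 Ccl4 counts per Ccl3 count in Dnm3os cells and 0.364 and 0.371 in empty vector cells. Ccl2 had 0.383 and 0.425 counts per Ccl3 count in Dnm3os cells, against 0.296 and 0.257 in empty vector cells. Ccl9 had 0.949 and 1.00 counts per Ccl3 count in Dnm3os cells, against 0.848 and 0.767 in empty vector cells. These ratios need no scaling between libraries, and in all 3 of them the groups stood apart by more than the spread within either, by the least for Ccl4, although 2 libraries against 2 are too few for an exact test to pass the threshold. Ccl5, a ligand of Ccr1 and Ccr3 also known as RANTES, had 4.38 and 4.05 CPM in Dnm3os libraries, against 3.26 and 3.71 CPM in empty vector libraries. Its log2 fold change was 0.28 (95% interval -0.02 to 0.57, adjusted p = 0.251 by edgeR), and no alternative called it.

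**Figure D2:**
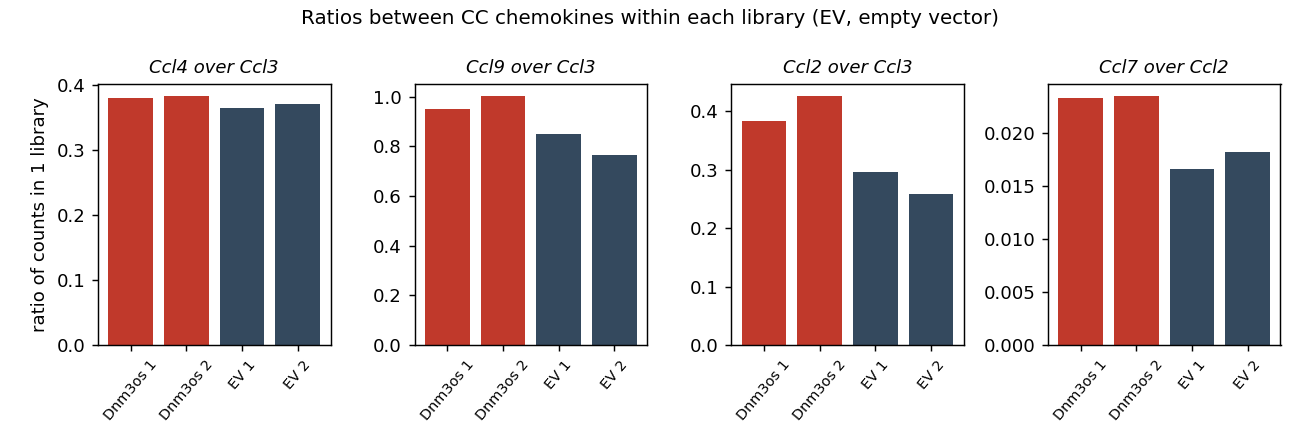
Ratio of the counts of a pair of CC chemokines within each library, for Dnm3os (red) and empty vector (dark) replicates 1 and 2, on linear axes from 0. Ccl4 over Ccl3 is 0.379 and 0.383 in Dnm3os libraries and 0.364 and 0.371 in empty vector libraries, and Ccl2 over Ccl3 is 0.383 and 0.425 in Dnm3os libraries and 0.296 and 0.257 in empty vector libraries.

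The paired Ccr1 ligands of the mouse, Ccl9 and Ccl6, share the sequence described above, at offset positions, and have very different levels. Ccl9 had 775 and 782 CPM in Dnm3os libraries, against 558 and 581 CPM in empty vector libraries. It rose by a log2 fold change of 0.45 ± 0.03 SE (adjusted p = 4.91e-11 by edgeR) and was called under all 14 alternatives. Ccl6 had 54 and 46 counts or 1.83 and 1.34 CPM in Dnm3os libraries, against 29 and 36 counts or 0.727 and 1.02 CPM in empty vector libraries. The groups did not overlap, but the 2 nearest libraries were close (log2 fold change 0.86 ± 0.27 SE, adjusted p = 0.0372 by edgeR). The call of Ccl6 was lost without Dnm3os library 1 (adjusted p = 0.355 by edgeR), Dnm3os library 2 (0.0732) or empty vector library 1 (0.275), in a range of 0.0158 to 0.355 across alternatives. The longest identical stretch shared by the Ccl6 and Ccl9 transcripts was 25 bases, and no other pair of members shared a longer one.

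Outside the cluster, Ccl22, which attracts regulatory and type 2 helper T cells, had 29 and 44 counts or 0.985 and 1.28 CPM in Dnm3os libraries, against 18 and 20 counts or 0.451 and 0.566 CPM in empty vector libraries. Both Dnm3os libraries were above both empty vector libraries (log2 fold change 1.17 ± 0.32 SE, adjusted p = 0.0153 by edgeR). The call was lost without Dnm3os library 2 (adjusted p = 0.248 by edgeR) or empty vector library 1 (0.120), with alternatives ranging from 0.00795 to 0.248. Ccl24, an eosinophil attractant that binds Ccr3, had 1 and 0 counts in Dnm3os libraries, against 0 and 0 in empty vector libraries, so it was at the limit of detection in both groups.

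**Figure D3:**
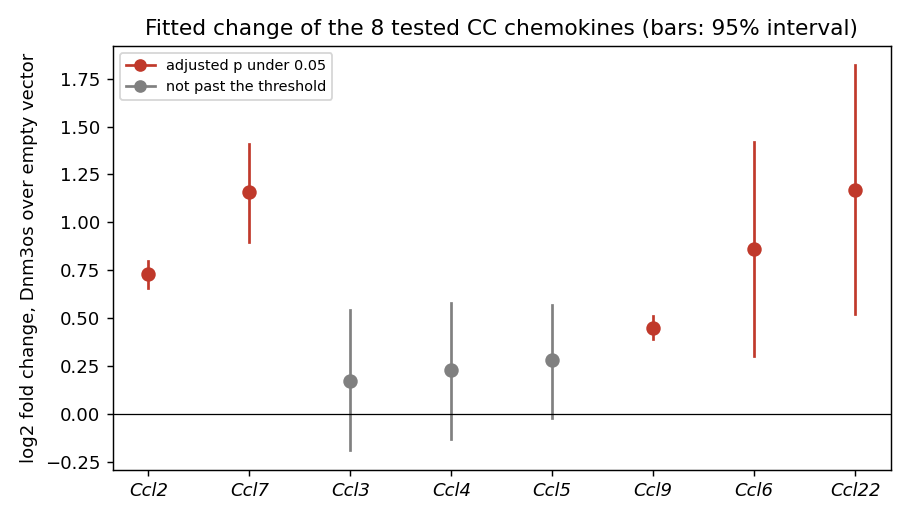
Log2 fold change of Dnm3os over empty vector (vertical axis) for the 8 tested CC chemokines, with 95% intervals from the edgeR fit. Red points passed the threshold of 0.05 on the adjusted p; the intervals of Ccl3, Ccl4 and Ccl5 include 0.

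Per kilobase of transcript, the order of levels was Ccl3, Ccl4, Ccl2 and Ccl9 in both groups, and neighbours in that order did not overlap within a group. Ccl3 averaged 1043 CPM per kb in Dnm3os cells and 924 in empty vector cells, and Ccl9, with the longest transcript, 259 and 189. Ccl7 and Ccl5 changed places: Ccl7 averaged 9.44 and Ccl5 7.93 CPM per kb in Dnm3os cells, whereas in empty vector cells Ccl7 averaged 4.24 and Ccl5 6.55. Ccl6 and Ccl22 came last in both groups, with 1.10 and 0.512 CPM per kb in Dnm3os cells, against 0.606 and 0.230 in empty vector cells. Ccl3 was above 98.8% of the tested genes by mean CPM, and Ccl22 above 9.01%.

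Ccl2, Ccl3, Ccl4 and Ccl9 together held 99.3% of the counts of the 10 genes in each Dnm3os library and 99.5% in each empty vector library. The 10 genes summed to 2229 and 2209 CPM in Dnm3os libraries, against 1657 and 1824 CPM in empty vector libraries. Of that pool, Ccl2 held 14.0% and 15.0% in Dnm3os libraries, against 11.7% and 10.7% in empty vector libraries. Ccl9 held 34.8% and 35.4% in Dnm3os libraries, against 33.7% and 31.9% in empty vector libraries. Ccl3 held 36.6% and 35.4% in Dnm3os libraries, against 39.7% and 41.5% in empty vector libraries. Thus the shares of Ccl2 and Ccl9 were higher and that of Ccl3 lower in both Dnm3os libraries than in either empty vector library.

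**Figure D4:**
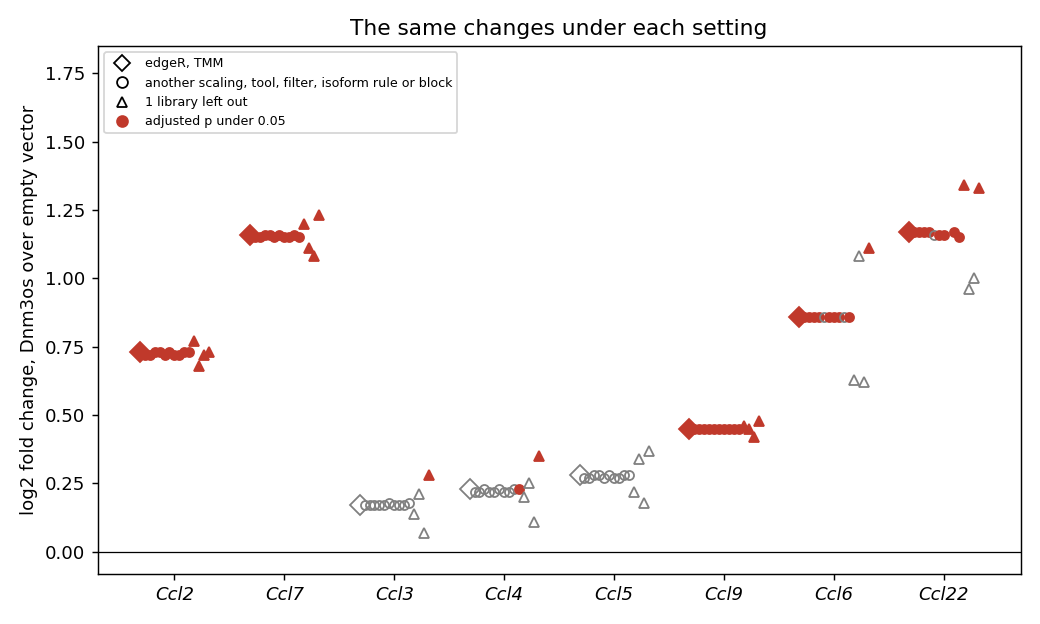
Log2 fold change of Dnm3os over empty vector (vertical axis) for the tested CC chemokines in the edgeR fit with TMM (diamond), under other scalings, tools, filters, the isoform sum or the replicate block (circles) and with 1 library left out (triangles), filled where the adjusted p was under 0.05. Ccl2, Ccl7 and Ccl9 stay filled throughout, and Ccl6 and Ccl22 lose the fill under some settings.

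Of 11 further CC chemokine genes, 8 had 0 counts in all 4 libraries, among them Ccl8 and Ccl11 from the same stretch as Ccl2. Ccl17, which shares its receptor with Ccl22, had 0 and 0 counts in Dnm3os libraries, against 0 and 12 in empty vector libraries, so its counts came from empty vector library 2 alone. Ccl25, a thymic and gut chemokine, was the single one tested, through a transcript that RefSeq lists as noncoding. It had 1.39 and 1.60 CPM in Dnm3os libraries, against 1.43 and 1.53 CPM in empty vector libraries (log2 fold change 0.03, 95% interval -0.44 to 0.49, adjusted p = 0.969 by edgeR). Ccl28, an epithelial chemokine, had 8 and 9 counts in Dnm3os libraries, against 7 and 9 in empty vector libraries. Of these 11 genes, 0 were called in either direction; DESeq2 and limma-voom also called 0, and no edgeR p before adjustment was under 0.05 (0 genes).

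Over all tested genes, 6.51% were called higher and 5.75% lower. Among 14 receptor genes, 7 were tested, of which 2 rose, 0 fell and 5 did not pass. Of these, 1 receptor passed the filter on low counts only through the Dnm3os libraries, so no median is given. No tested receptor was lower by DESeq2 or limma-voom either (0 each), nor at an unadjusted edgeR p under 0.05 (0). Ccr1, the receptor of Ccl3, Ccl5, Ccl6 and Ccl9, had 40.3 and 38.7 CPM in Dnm3os libraries, against 22.0 and 25.0 CPM in empty vector libraries. The groups were far apart relative to their spread (log2 fold change 0.75 ± 0.06 SE, adjusted p = 1.81e-08 by edgeR). Ccr2, the receptor of Ccl2, Ccl7 and Ccl12, had 2.51 and 2.36 CPM in Dnm3os libraries, against 1.60 and 1.30 CPM in empty vector libraries (0.74 ± 0.20 SE, adjusted p = 0.0172 by edgeR). That call was lost without Dnm3os library 1 (adjusted p = 0.128 by edgeR), Dnm3os library 2 (0.0967) or empty vector library 2 (0.117), with alternatives spanning 0.00607 to 0.243, which left 1 receptor called. Ccr2 may share reads with related receptor genes, so its count is uncertain.

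The atypical receptor Ccrl2, which binds chemerin, had 1.32 and 1.66 CPM in Dnm3os libraries, against 0.827 and 0.990 CPM in empty vector libraries, with a log2 fold change of 0.73 (adjusted p = 0.0694 by edgeR). The Dnm3os libraries were above the empty vector ones without passing the threshold. Ccr3, Ccr10 and the scavenging receptor Ackr4 had overlapping groups, at 0.03, 0.06 and -0.02. Ccr4, the receptor of Ccl22, had 6 and 6 counts in Dnm3os libraries, against 11 and 8 in empty vector libraries and was not tested. Ccr6, Ackr1 and Ackr2 had 0 counts throughout.

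**Figure D5:**
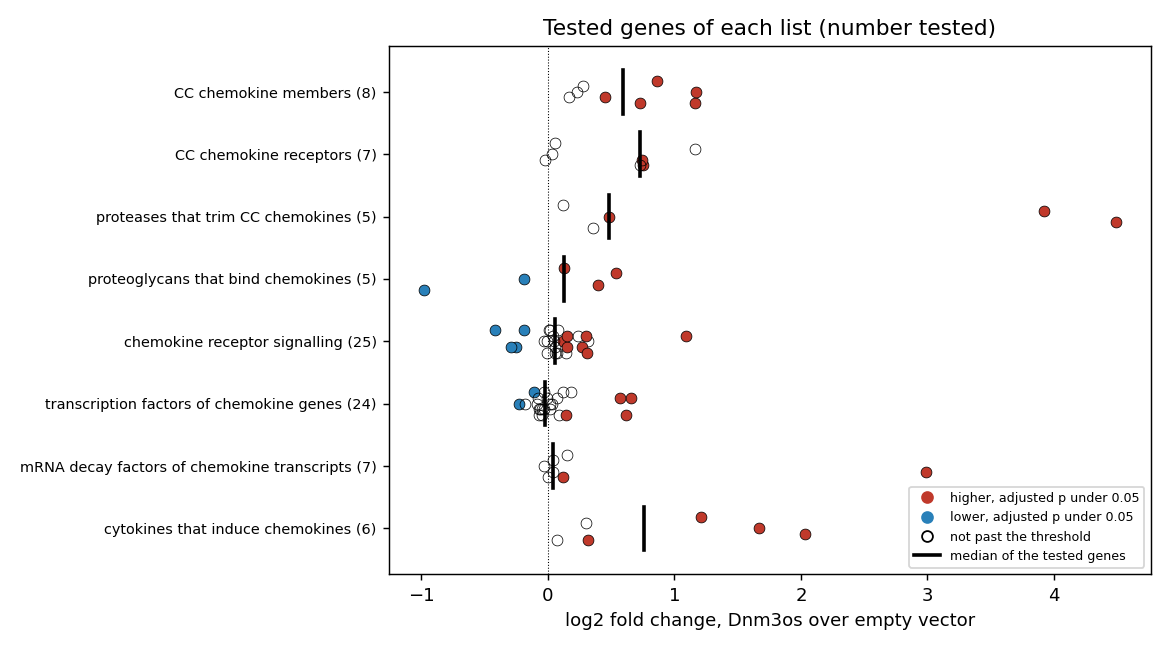
Log2 fold change of Dnm3os over empty vector (horizontal axis) for every tested gene of the CC chemokines and of 7 related lists, red where higher and blue where lower at an adjusted p under 0.05, with a black bar at each list's median. The chemokines and the inducing cytokines have medians of 0.59 and 0.76, and the transcription factors with NF-kB inhibitor proteins -0.02. The receptors and the proteases each include a gene that passed the filter on low counts only through the Dnm3os libraries. That gene had to lie to the right, so the bars of these lists are not read.

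The inducers Tnf and Il1b, inflammatory cytokines that switch on CC chemokine genes in macrophages, rose. Beside 6.51% of all tested genes called higher and 5.75% lower, 4 of 6 tested cytokines rose and 0 fell. Their median was 0.76, against 0.00 over all tested genes. The 0 lower stayed 0 with DESeq2, with limma-voom and at an edgeR p under 0.05 before adjustment. Tnf had 221 and 212 CPM in Dnm3os libraries, against 173 and 175 CPM in empty vector libraries (log2 fold change 0.32 ± 0.03 SE). Il1b had 4.04 and 4.26 CPM in Dnm3os libraries, against 1.55 and 1.02 CPM in empty vector libraries (1.67 ± 0.19 SE). Il1a, its sister cytokine (2.03 ± 0.29), and the granulocyte factor Csf3 (1.21 ± 0.10) were the others, and all 4 were called under all 14 alternatives.

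Transcription factors that act on chemokine genes, listed with NF-kB inhibitor proteins, mostly did not pass the threshold. Among the 24 genes of this list, 4 rose and 2 fell, leaving 18 short of the threshold, with a median of -0.02. Of all tested genes, 6.51% were called higher and 5.75% lower. The atypical NF-kB inhibitor protein Nfkbiz (log2 fold change 0.66 ± 0.06) and the myeloid factor Irf8 (0.62 ± 0.07) rose. The AP-1 subunit Fos (-0.23 ± 0.05) and the interferon factor Irf7 (-0.11 ± 0.03) fell, Fos not without Dnm3os library 2 and Irf7 not without Dnm3os library 1, Dnm3os library 2 or empty vector library 1. Without Dnm3os library 2 there were 0 factors lower, and without Dnm3os library 1 or empty vector library 1 there was 1. The NF-kB subunits Nfkb1 and Rela had log2 fold changes of 0.09 and 0.03 and did not pass. With isoforms summed, 2 factors were higher.

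Of 7 factors that destabilise chemokine transcripts or bind their AU-rich ends, 2 rose, 0 fell and 5 did not pass, with a median of 0.04. The shares over all tested genes were 6.51% higher and 5.75% lower. Zfp36l1, a relative of tristetraprolin, had 4.93 and 4.84 CPM in Dnm3os libraries, against 0.752 and 0.453 CPM in empty vector libraries (2.99 ± 0.21 SE). Zfp36, tristetraprolin itself, rose by a log2 fold change of 0.12 ± 0.04, a call lost under 7 of its 14 alternatives, among them leaving out Dnm3os library 1, Dnm3os library 2 or empty vector library 2, when 1 factor was higher. Before adjustment edgeR gave 0 lower at a p under 0.05, and the other tools, DESeq2 and limma-voom, gave 0.

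Proteases that can trim CC chemokines rose in 3 of 5 tested genes, with 0 lower (0 at an unadjusted p under 0.05 by edgeR, and 0 called by DESeq2 and limma-voom). Mmp12, the macrophage elastase, rose by a log2 fold change of 3.92 ± 0.14 and the gelatinase Mmp9 by 0.48 ± 0.05. The collagenase Mmp8 had 11 and 13 counts in Dnm3os libraries, against 1 and 0 in empty vector libraries. It passed the filter on low counts only through the Dnm3os libraries, so its call had to favour them and no median of the list is given. Among the other 4 proteases, 2 rose, beside 6.51% of all tested genes called higher and 5.75% lower. Of 5 tested proteoglycans that hold chemokines at the cell surface or in granules, 3 rose and 2 fell, with a median of 0.13. The syndecan Sdc1 had 11.6 and 11.8 CPM in Dnm3os libraries, against 23.8 and 22.2 CPM in empty vector libraries (-0.98 ± 0.07 SE), and Sdc4 fell by 0.19 ± 0.04 on the log2 scale. Serglycin, Srgn (0.54 ± 0.04), the syndecan Sdc3 (0.40 ± 0.05) and the hyaluronan receptor Cd44 (0.13 ± 0.03) rose.

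Of 25 tested signalling genes downstream of the receptors, 7 rose, 4 fell and 14 did not pass, with a median of 0.06. Among all tested genes, 6.51% were called higher and 5.75% lower. The GTPase Rac2 (log2 fold change 0.27 ± 0.03) and the signalling regulator Rgs2 (0.30 ± 0.04) rose. The regulator Rgs16 (-0.42 ± 0.05) and Pik3r5, a regulatory subunit of the G protein-coupled PI3 kinase (-0.25 ± 0.03), fell. The inhibitory G protein subunits Gnai2 and Gnai3 had log2 fold changes of 0.06 and 0.06 and did not pass.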

How the data were processed

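Poly(A) RNA libraries of RAW 264.7 cells, 2 with Dnm3os and 2 with the empty vector, were sequenced on an Illumina HiSeq instrument, per the labels' protocols. The submitters' processing notes name TopHat, Bowtie2, DESeq2 and the build mm9, with no versions or roles; for the read counter and its strand setting, the sources used here give nothing. The authors deposited raw counts per RefSeq transcript, and a normalized signal column that is each raw count multiplied by a constant fixed within a library (0.8653 to 1.1723); the raw counts were used.

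Transcripts were named from RefSeq (35494) and GENCODE (183) tables, 109 (0.246 to 0.276% of counts) stayed under their accession and in the test, and 45S ribosomal RNA (0.044 to 0.081% of counts) was left out. A gene with several transcripts is represented by the one with most counts on average. edgeR 4.0.16 in R 4.3.3 (filterByExpr, TMM factors 0.9970 to 1.0030, glmQLFit with robust set, glmQLFTest) tested 13172 genes, with Benjamini-Hochberg adjustment. The SE was taken as the size of the log2 fold change divided by the root of its F statistic. The same steps were also run on simulated counts with known changes, placed only in genes with many counts. That run does not bear on calls at low counts, and its outcome is not used here. CPM use TMM-scaled libraries, and lengths are GENCODE's for the same accessions. Replicates differed beyond counting noise (chi-square over degrees of freedom 4.22 in Dnm3os, 5.12 in empty vector). Promoter sequences and their coordinates are RefSeq's on GRCm38.p6, and no coordinate was carried over from mm9. The alternatives used DESeq2 1.42.0 and limma 3.58.1 among others.

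The members and lists were chosen with earlier results of these data known. Named were all members, Dnm3os, every tested gene of the further CC chemokines and receptors except 1 receptor that is counted but not reported here, Tnf and Il1b, and of each other list up to 4 called genes with the smallest adjusted p; Nfkb1, Rela, Gnai2, Gnai3, Cd44, the counts of untested genes and single markers were added after their values were seen. With 29416272 to 39769640 gene counts per library, genes under 1 CPM rest on few counts.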

Additional observations from a re-analysis of the deposited data

How the results depend on the processing

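Each result was recomputed under 14 alternatives, except where a gene was not tested (Ccl22 in 13, Mmp8 in 11). The calls of Ccl2 (0.68 to 0.77), Ccl7 (1.08 to 1.23) and Ccl9 (0.42 to 0.48, log2 fold change) held under all of them, and the 8 tested members stayed higher in Dnm3os cells throughout. The members called higher were 3 by DESeq2 and 3 to 7 with 1 library left out, where Ccl6 or both Ccl6 and Ccl22 were lost and, without empty vector library 2, Ccl3 and Ccl4 were gained. Among the named genes, DESeq2 lost Ccl6 (adjusted p = 0.346), Ccl22 (0.239), Ccr2 (0.243), Mmp8 (0.0711) and Zfp36 (0.322). Over the related lists DESeq2 called 20 higher and 8 lower, against 25 and 8 by edgeR. With isoforms summed, edgeR lost Ccl6 (adjusted p = 0.0895) and Zfp36 (0.0946) and called Ccrl2 (0.0215). The filter at 1 CPM removed Ccl22, which put the median of the members at 0.45, against 0.59. Over all genes, DESeq2 called 404 higher and 362 lower, and leaving out 1 library gave 465 to 808 higher and 396 to 786 lower, the lowest without Dnm3os library 2 and then without Dnm3os library 1 (492 and 455). Over the related lists, with 25 higher and 8 lower, it gave 18 to 24 higher and 5 to 8 lower, 5 without Dnm3os library 2. These fits leave 1 group with a single library, which is assumed to vary like the other group. Without a filter on low counts, Ccl12 had adjusted p = 0.355 and Ccl24 0.742. Results near 0 that changed sign were Ackr4 (0.02 with the replicate block, 0.05 by limma-voom), and with 1 library left out Ackr4 (-0.39 to 0.52), Ccl25 (-0.08 to 0.12), Ccr10 (-0.06 to 0.19) and Ccr3 (-0.13 to 0.20). The cause of these differences was not tested.

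The replicate numbers pair no samples by the labels, and deviations of same-numbered libraries correlated at -0.063 across genes. With the replicate block, 868 genes were higher and 782 lower, and 6 members were higher, Ccl4 (0.23, adjusted p = 0.0264) being added. Depth limits Ccl12, Ccl24 and Ccr4, at 11 counts or fewer per library.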
